A study of Homo sapiens with 20 samples.

Results

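The genes described here are the receptors EGFR, ERBB2 and ERBB3, the ligands AREG, EREG, HBEGF and TGFA, and the feedback genes ERRFI1 and DUSP6, 9 of 20033 protein-coding genes. They were taken by name. H3K27ac, the acetylated lysine of the histone H3 tail that marks promoters and enhancers in use, was read in each gene body plus 10 kb on each side (hg38, GENCODE version 44). The cells were HCT-116, a line from a human colorectal carcinoma, here wild type for FBXW7 (WT) or with FBXW7 knocked out (FBXW7-/-, KO), obtained as an engineered line. No source used here says whether the KO line is 1 clone, and peak lists cannot check the loss of FBXW7 or the silencing of HDAC4. All cells received esiRNA for 48 h, a pool of short RNAs either as a control (esiCT) or against the histone deacetylase HDAC4 (esiHDAC4). They were then left with vehicle (UNT) or exposed to the platinum drug oxaliplatin at 50 µM (OXPT) for the last 24 h, which gave 8 groups of 2 libraries, A and B. FBXW7 is the substrate receptor of a ubiquitin ligase, and the design asks whether its loss, HDAC4 silencing and the drug change the chromatin state. The labels speak of 3 pooled experiments and the study's methods of 2 biological replicates, and how these relate to A and B is not settled, so p-values measure the spread between these libraries, which may be partly technical.

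Ligands of this family are made as membrane precursors, are shed, and bind EGFR or its relatives, which then pair and phosphorylate each other. ERBB2 has no known soluble ligand and acts as a partner, while ERBB3 is kinase-impaired and signals through its partner. Signalling runs through RAS to the MAP kinases. ERRFI1 (also called MIG6) binds and inhibits EGFR, and DUSP6 dephosphorylates ERK, so both are negative feedback genes. In colon epithelium AREG and EREG, which lie next to each other, are well known as ligands of EGFR.

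The sequences that follow are shown because they lie in regions called in every library (EREG, ERRFI1), in regions whose calls differed in number between WT and KO (AREG), or hold motif letters (EGFR, ERRFI1). All are from hg38, and those called promoters are RefSeq windows (GRCh38.p14) of 250 bases before to 50 after a transcript start. Promoter windows were found for 8 of the 9 members, 10 windows in all, and none for ERBB3. Capitals mark matches to the letters of AP-1 (TGANTCA), MEF2 (CTANNNNTAG) or FOXO (GTAAACA), searched on both strands. No match overlapped another.
EREG promoter, chr4:74364895-74365194, plus strand, inside a region called in all 16 libraries: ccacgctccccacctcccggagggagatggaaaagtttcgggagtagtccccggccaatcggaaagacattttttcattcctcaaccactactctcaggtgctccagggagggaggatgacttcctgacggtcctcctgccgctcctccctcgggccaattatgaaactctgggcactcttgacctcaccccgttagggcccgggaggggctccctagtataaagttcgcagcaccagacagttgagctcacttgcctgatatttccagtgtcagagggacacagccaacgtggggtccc
AREG promoter, chr4:74444886-74445185, plus strand, inside a region called in 14 libraries: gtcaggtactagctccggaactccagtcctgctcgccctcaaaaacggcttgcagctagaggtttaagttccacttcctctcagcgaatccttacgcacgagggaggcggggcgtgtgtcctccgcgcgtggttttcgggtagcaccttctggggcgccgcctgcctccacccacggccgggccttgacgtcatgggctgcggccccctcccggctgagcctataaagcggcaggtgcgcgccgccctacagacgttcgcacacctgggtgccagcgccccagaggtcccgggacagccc
AREG gene body, chr4:74451973-74452272, plus strand, around the median summit of a region called in 7 WT and 0 KO libraries: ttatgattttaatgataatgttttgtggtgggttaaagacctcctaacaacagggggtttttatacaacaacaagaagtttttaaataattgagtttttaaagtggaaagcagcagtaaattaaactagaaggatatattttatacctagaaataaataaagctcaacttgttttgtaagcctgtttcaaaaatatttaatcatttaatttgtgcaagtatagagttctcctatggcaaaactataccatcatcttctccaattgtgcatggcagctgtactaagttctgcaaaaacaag
EGFR internal start, chr7:55109589-55109888, plus strand, inside a region called in 11 libraries: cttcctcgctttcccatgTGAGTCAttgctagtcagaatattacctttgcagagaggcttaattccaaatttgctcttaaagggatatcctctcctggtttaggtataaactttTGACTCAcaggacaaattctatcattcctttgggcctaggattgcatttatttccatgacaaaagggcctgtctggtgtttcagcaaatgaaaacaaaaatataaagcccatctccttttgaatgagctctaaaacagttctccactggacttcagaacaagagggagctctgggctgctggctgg
ERRFI1 promoter, chr1:8026260-8026559, minus strand, inside a region called in all 16 libraries: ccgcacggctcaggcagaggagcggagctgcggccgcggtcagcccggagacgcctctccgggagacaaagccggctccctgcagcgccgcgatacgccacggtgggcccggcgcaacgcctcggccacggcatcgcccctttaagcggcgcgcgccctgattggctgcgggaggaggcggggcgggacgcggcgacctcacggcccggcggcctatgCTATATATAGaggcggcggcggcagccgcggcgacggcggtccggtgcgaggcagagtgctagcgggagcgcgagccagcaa

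AP-1 letters were present in 2 of the 10 promoter windows, those of the internal EGFR start and of ERBB2, against 7.71% of 35116 RefSeq promoters. The internal EGFR start held 2 matches. MEF2 letters were present in 1 window, that of ERRFI1, against 2.73% of all promoters. FOXO letters were in 0 of the 10 windows and in 3.42% of all promoters. A match is a description of letters and does not show binding. The AREG gene body window held none of these letters and had a GC content of 30.3%, against 66.3% in the AREG promoter. The window around the median summit of the AREG start-site region also held none and had a GC content of 23.7%. The median GC content over summit windows of all regions in 3 or more libraries was 53%. Of the members' summit windows not printed here, that of the strongest region in the ERBB2 window held AP-1 and FOXO letters. That of HBEGF held AP-1 letters, and those of the other members held none. Over all 22137 such summit windows, 7.44% held AP-1 and 3.39% FOXO letters.

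Depth was very unequal. The lists held between 1752 peaks and 66 super-enhancers (SEs, long stretches of stitched enhancers) in KO esiHDAC4 UNT replicate B and 27927 peaks or 1265 SEs at most. KO replicate B lists held 1752 to 8216 peaks and KO replicate A lists 12639 to 21875, while WT lists held 10562 to 27927. The lowest fold a peak needed to be listed against the common background was 2.88 to 3.40 in WT and 3.07 to 3.96 in KO, so a missing peak in KO may be a missed one. Of the 9 epithelial markers, 6 carried a peak in at least 12 libraries, KRT8 and KRT18 in all 16, and VIL1 in 1. None of the 3 endothelial markers had a start-site peak, and 3 of the 4 blood markers had none. Start-site peaks of COL1A1, a fibroblast marker, were called in 11 libraries and those of SYT1, a neuronal marker, in 12.

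**Figure D1:**
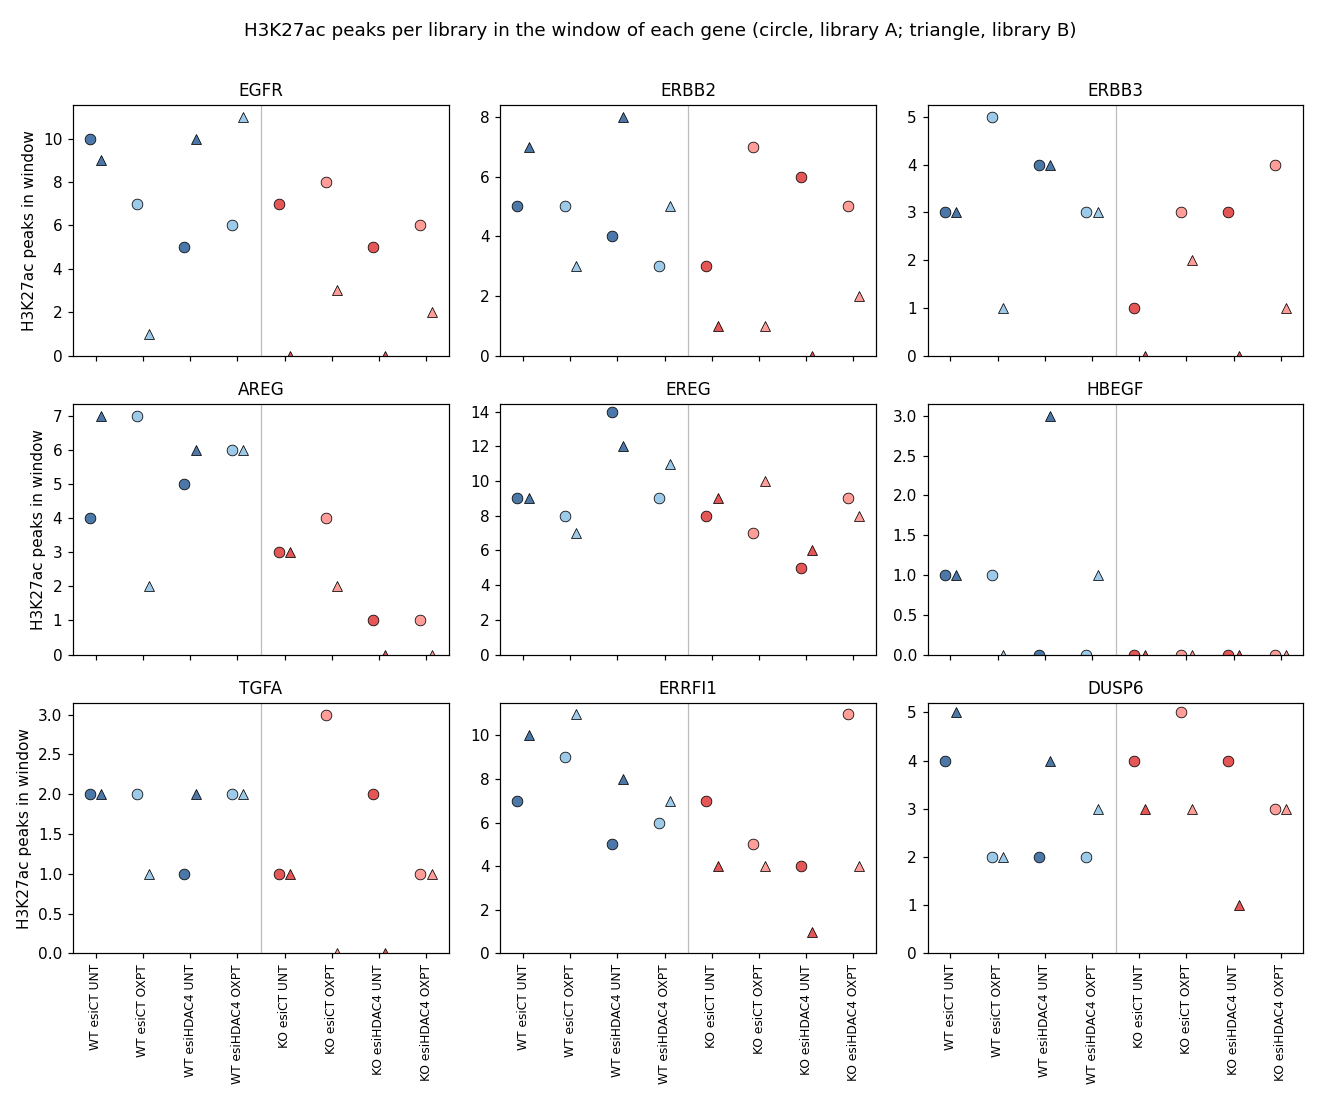
Number of H3K27ac peaks (vertical axis) in the window of each member, for the 8 groups (horizontal axis), one symbol per library (circle, A; triangle, B; blue, WT; red, KO; paler, OXPT). HBEGF has peaks in 5 WT libraries and in no KO library, and AREG reaches at most 4 peaks in KO against 7 in WT.

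Of the 9 members, AREG alone had fewer peaks in KO by a test that passed over all genes. Of the 9 differences, 8 were negative, with a median of -0.75. That median is the value of HBEGF, which had peaks in WT alone, so its sign was fixed in advance. Of 13784 genes tested by limma on log2(peaks + 1) with the replicate letter as a block, 2072 passed an adjusted p of 0.05 between KO and WT, which is 15.0%, with 2068 of them lower in KO and a median difference of -0.52. The members' share, 1 of 9, stands beside that background. The count over all genes was 0 once all lists were scaled to the shallowest library, with a call at none of the members.

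AREG, which encodes amphiregulin, a ligand of EGFR, lies at chr4:74445136-74455005 on the plus strand. The WT libraries held 2, 4, 5, 6, 6, 6, 7 and 7 peaks in its window and the KO libraries 0, 0, 1, 1, 2, 3, 3 and 4, so the sides overlapped between 2 and 4. The means were 5.38 ± 1.69 in WT and 1.75 ± 1.49 in KO (SD, n = 8 each). On the log2(peaks + 1) scale KO was lower by a difference of -1.38 (SE 0.32), with an adjusted p of 0.0175 in limma. An exact permutation test within letters over 4900 arrangements gave p = 0.00327 (two-sided). Scaled to the shallowest depth, the window held 0 to 3 peaks in WT and 0 to 2 in KO, with a difference of -0.18 (adjusted p = 0.711 in limma). Without the block the adjusted p was 0.0730. It was above 0.05 after leaving out any one of WT esiCT UNT B, WT esiCT OXPT A, WT esiHDAC4 UNT B, WT esiHDAC4 OXPT B, KO esiCT UNT A, KO esiCT OXPT B, KO esiHDAC4 UNT B or KO esiHDAC4 OXPT B, with limma adjusted p from 0.0596 to 0.0801. Within letter A alone the difference was -1.10 (adjusted p = 0.375) and within letter B alone -1.65 (adjusted p = 0.0575), both by limma.

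Of the AREG regions tested between KO and WT, none passed. The start-site region, chr4:74444244-74449902, was called in 8 WT and 6 KO libraries. It was not tested, since only regions called in 3 to 13 libraries were. Downstream, chr4:74451514-74453353 was called in 7 WT and 0 KO libraries, with folds of 2.99 to 4.40 in WT and a median of 3.55. Regions on either side of it, chr4:74450312-74450836 and chr4:74454065-74454491, were called in 4 and 3 WT libraries and in 0 KO libraries. These regions were named for their difference of at least 3 libraries between sides, and they entered the region test only through WT. In the region test, those in 4 and 3 libraries could not reach an unadjusted p below 0.05 at any split. That test, of presence stratified by letter over the 20090 merged regions called in 3 to 13 libraries, was added after the values were seen and called 0% between KO and WT (2740 at an unadjusted p below 0.05). Of 1661 regions called in exactly 7 libraries, 103 (6.20%) were in WT libraries only. Against the common background, the lowest fold that could be listed was 3.07 to 3.57 in the KO replicate A lists, which were deeper. Of the 7 WT folds, 3 to 6 were above that level. In the KO replicate B lists it was 3.49 to 3.96, and 2 to 4 of the 7 were above it. Elsewhere peaks were listed below these levels, such as an EGFR peak of fold 2.99 in KO esiCT OXPT B. The counts therefore do not settle what the KO lists could have held. The start-site folds of AREG were 2.90 to 7.14 in the 8 WT libraries and 4.51 to 7.78 in the 6 KO libraries with a peak, so they overlapped. The centred summit fold differed by 0.27 (SE 0.14, limma adjusted p = 0.373, 14 libraries).

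AREG was part of an SE in 4 libraries, all WT (esiCT UNT B, esiCT OXPT A, esiHDAC4 UNT A and esiHDAC4 UNT B), with spans of 6.01 to 10.2 kb. It entered the exact test of SE presence through WT alone, so no p is given for it. Of the 739 genes that had an SE in 3 to 13 libraries, 0% passed in each of the 3 comparisons (47, 10 and 1 at an unadjusted p below 0.05 for genotype, OXPT and esiHDAC4).

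**Figure D2:**
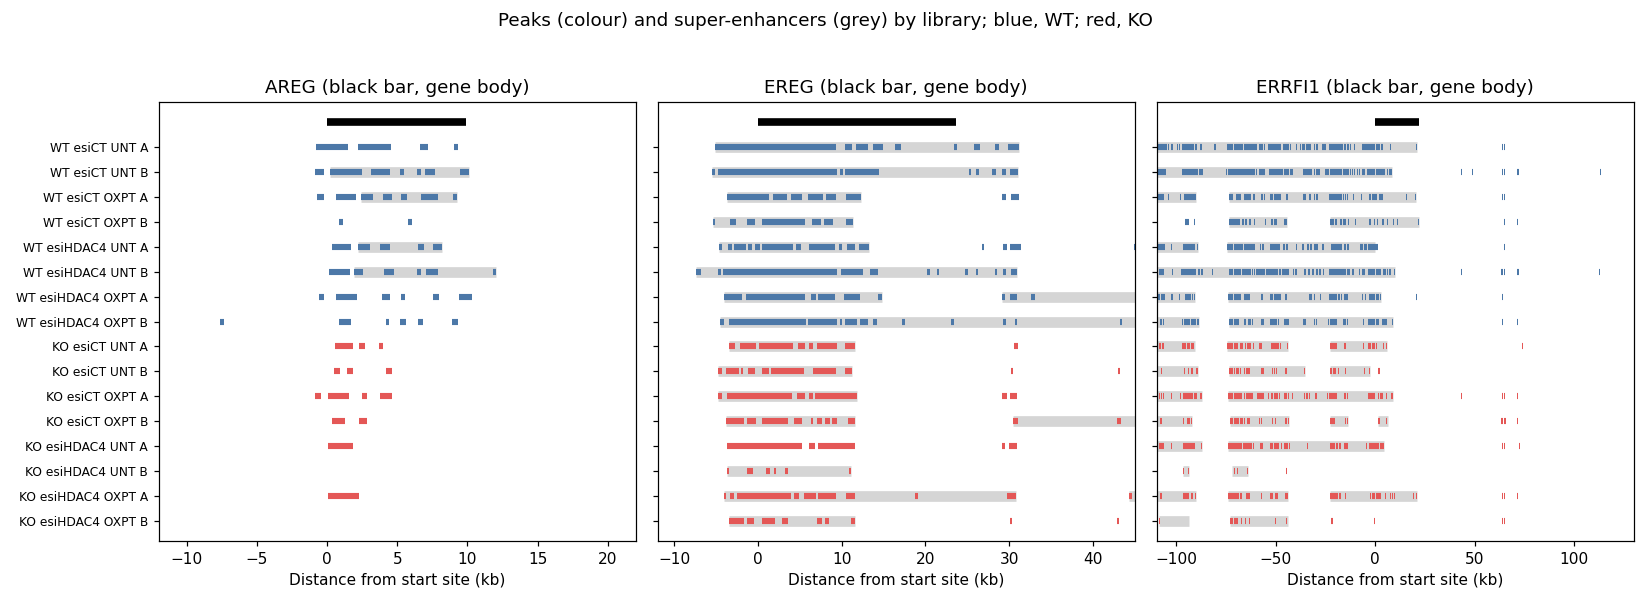
Peaks (coloured) and SEs (grey) in each library, one row per library, by distance in kb from the start site of AREG, EREG and ERRFI1, with the gene body in black. The EREG block is present in all 16 rows, while AREG peaks past the start-site block are blue (WT) from about the middle of the gene onwards.

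EREG, which encodes epiregulin, was the only ligand with a peak in all 16 libraries. It lies at chr4:74365145-74388749 on the plus strand, and its window held 7, 8, 9, 9, 9, 11, 12 and 14 peaks in WT and 5, 6, 7, 8, 8, 9, 9 and 10 in KO. The broad region at its start, chr4:74359691-74380050, was called in all 16 libraries with folds of 5.17 to 9.95. A further region beyond the gene, chr4:74394237-74396595, was called in 14 libraries, 7 WT and 7 KO, and is named here after its values were seen. At least 1 SE met its window in 15 libraries, all except KO esiHDAC4 UNT A, and WT esiHDAC4 OXPT A and KO esiCT OXPT B had 2 each. Single SEs spanned 14.8 to 58.7 kb. The peak number difference between KO and WT was -0.31 (adjusted p = 0.327 in limma) and became 0.44 (adjusted p = 0.394) after scaling to the shallowest depth, so the sign differed with and without the scaling.

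The strongest EREG fold was 7.78 to 9.23 in the 4 WT UNT libraries and 5.17 to 7.05 in the 4 WT OXPT libraries, which do not overlap. The same held for 14.4% of the 3991 genes listed in all 8 of these libraries. In KO it was 7.65 to 9.95 in UNT and 5.80 to 8.06 in OXPT, which do overlap. The reference level shared by 484 genes listed in every library, on the log2 scale, was also higher in WT UNT libraries (0.12 to 0.39) than in WT OXPT libraries (-0.23 to -0.04). After subtraction of that level the difference between OXPT and UNT was -0.25 (SE 0.10, unadjusted p = 0.0231, adjusted p = 0.576 in limma) and that between KO and WT 0.27 (SE 0.10, adjusted p = 0.214). Neither passed. Of 5418 genes tested for summit fold, 0.314% passed between KO and WT and 0.0185% between OXPT and UNT, and 0% in the other 3 comparisons (223, 269 and 253 genes at an unadjusted p below 0.05). Of the 8 members tested, 0 passed in any of the 5.

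**Figure D3:**
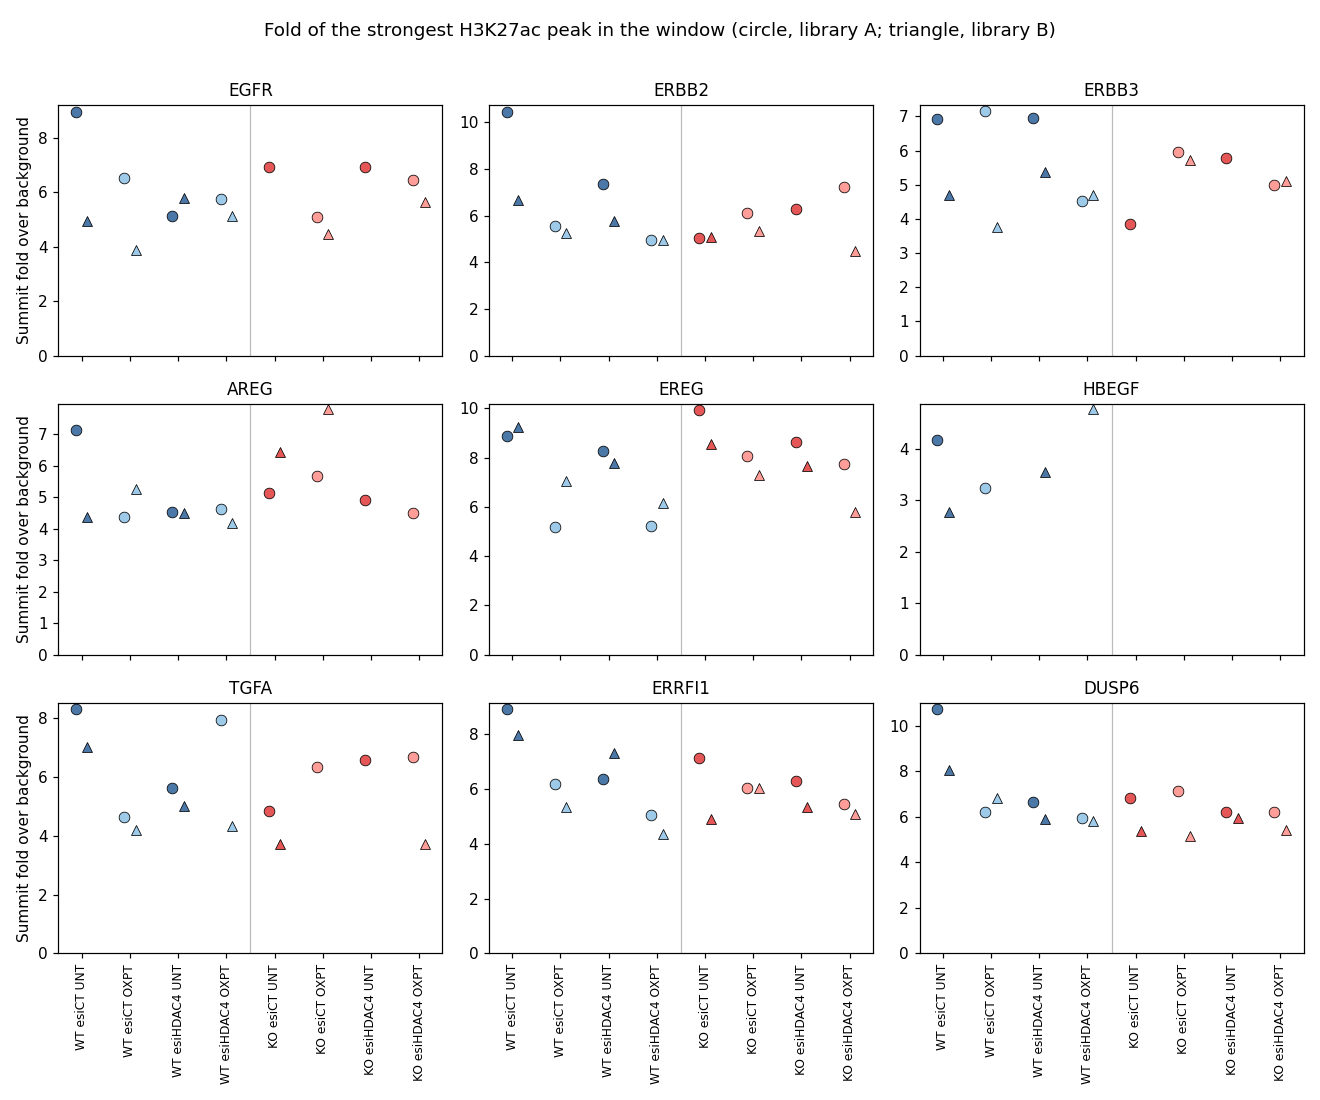
Fold of the strongest H3K27ac peak (vertical axis, as deposited) in the window of each member for the 8 groups (horizontal axis), one symbol per library (circle, A; triangle, B; blue, WT; red, KO; paler, OXPT). No symbol is drawn where no peak was called, which is the case for HBEGF in every KO library. EREG lies between 5.17 and 9.95 and DUSP6 between 5.16 and 10.7.

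HBEGF, a ligand of EGFR and ERBB4, had the least signal. Peaks were called in 5 WT libraries (1, 1, 1, 1 and 3 peaks, folds 2.77 to 4.77) and in 0 KO libraries. Its start-site region, chr5:140345313-140346486, was called in 3 WT libraries. HBEGF entered the tests of presence and of peak number through WT alone, so no p is given for it. The exact test of presence called 0% of 11069 genes in each of the 3 comparisons, with 1627, 93 and 11 genes at an unadjusted p below 0.05 for genotype, OXPT and esiHDAC4. The lowest fold that could be listed in KO against the common background was 3.07 to 3.96. The strongest HBEGF folds of the 5 WT libraries were 2.77, 3.23, 3.54, 4.16 and 4.77. Of these, 4.16 and 4.77 lay above that range, 3.23 and 3.54 inside it and 2.77 below it. With depth so unequal, these values do not allow a statement that the peaks were absent in KO. After the scaling to the shallowest library, HBEGF kept 0 peaks in each library.

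TGFA, the ligand TGF-alpha, had 1 or 2 peaks in each WT library and 0 to 3 in KO. Its start-site region, chr2:70551846-70554060, was called in 14 libraries (8 WT and 6 KO), with folds of 3.71 to 8.28. The difference in peak number was -0.49 (adjusted p = 0.216, limma), and 0 SEs were called. TGFA had the largest spread of centred log2 fold among the members listed in at least 12 libraries (SD 0.31, 14 libraries). Of 5091 genes at least 1 Mb away, the 3 with the most similar values were S100A13 (Pearson r = 0.82 over 14 libraries) and the overlapping pair AJUBA and ENSG00000259132 (r = 0.79 over 13 libraries). These values share library depth and are a description only.

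Among the receptors, EGFR carried the largest number of regions, 18, of which 9 were found in 1 library each. The gene (chr7:55019017-55211628, plus strand) is also the longest member, at 193 kb, and offers more room for peaks. Its window held 1, 5, 6, 7, 9, 10, 10 and 11 peaks in WT and 0, 0, 2, 3, 5, 6, 7 and 8 in KO. The region at its first start site, chr7:55017970-55021190, was called in 7 WT and 5 KO libraries, with folds of 3.32 to 8.95. Within the gene, the region around the internal start, chr7:55108248-55110941, was called in 7 WT and 4 KO libraries, and chr7:55133218-55135349 in 7 WT and 3 KO libraries. The region chr7:55127076-55129620 was called in 5 WT and 1 KO libraries. The difference in peak number between KO and WT was -1.01 (SE 0.41, adjusted p = 0.0815 in limma). SEs at EGFR were called in 3 libraries, WT esiCT UNT B, WT esiHDAC4 UNT B and KO esiCT OXPT A, with 2 SEs in the first of these (18.9 kb in all) and 1 in each of the others (5.69 and 2.72 kb).

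ERBB2 had 3 to 8 peaks in WT and 0 to 7 in KO (adjusted p = 0.127, limma). Its start-site region, chr17:39687240-39689444, is shared with the start of PGAP3 and was called in 7 WT and 6 KO libraries. A second start within the gene, chr17:39699332-39701397, was called in 7 WT and 5 KO libraries. The strongest region of the window, chr17:39737407-39741661, covers the start of GRB7, an adaptor protein gene, and not a start of ERBB2. It was called in 8 WT and 4 KO libraries, with folds of 3.38 to 10.4 (exact p = 0.0286, adjusted p = 0.258). The 4 KO libraries were all of replicate A. It was missing from every KO replicate B list, and these are the shallower ones, so the difference between WT and KO came from letter B alone. The strongest fold listed for the ERBB2 window can therefore come from a neighbouring gene.

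ERBB3 had 1 to 5 peaks in WT and 0 to 4 in KO (difference -0.79, SE 0.32, adjusted p = 0.0787, limma). Its start-site region, chr12:56078690-56081577, was called in 7 WT and 4 KO libraries, with folds of 3.84 to 7.17. The most frequent region of its window, chr12:56104585-56106608, lies at the start of PA2G4 and was called in 8 WT and 5 KO libraries. No SE was called at ERBB2, ERBB3, HBEGF or TGFA in any library.

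The feedback genes were marked in every library. ERRFI1 (chr1:8004404-8026309, minus strand) had 5, 6, 7, 7, 8, 9, 10 and 11 peaks in WT and 1, 4, 4, 4, 4, 5, 7 and 11 in KO. Its start-site region, chr1:8020354-8033981, was called in all 16 libraries with folds of 4.34 to 8.90. An SE was called in 14 libraries, all 8 WT and 6 KO, the exceptions being KO esiHDAC4 UNT B and KO esiHDAC4 OXPT B. The SEs that met the window spanned 44.9 to 235 kb in WT and 5.14 to 83.1 kb in KO, and they reached upstream of the gene. These spans overlap and were not tested. The difference in peak number was -0.68 (SE 0.31, adjusted p = 0.107, limma).

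DUSP6 (chr12:89347235-89352501, minus strand) had 2 to 5 peaks in WT and 1 to 5 in KO. The difference was 0.08 as deposited (SE 0.31, adjusted p = 0.83, limma) and 0.13 after the scaling. Of its start-site regions, chr12:89352737-89355410 was called in all 16 libraries (folds 5.16 to 10.7) and chr12:89349452-89352450 in 15. The region chr12:89347877-89349395 was called in 4 UNT and 1 OXPT libraries, and equally in 4 esiCT and 1 esiHDAC4 libraries. An SE was called in 2 libraries, WT esiCT UNT B (7.52 kb) and KO esiCT OXPT A (28.3 kb).

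**Figure D4:**
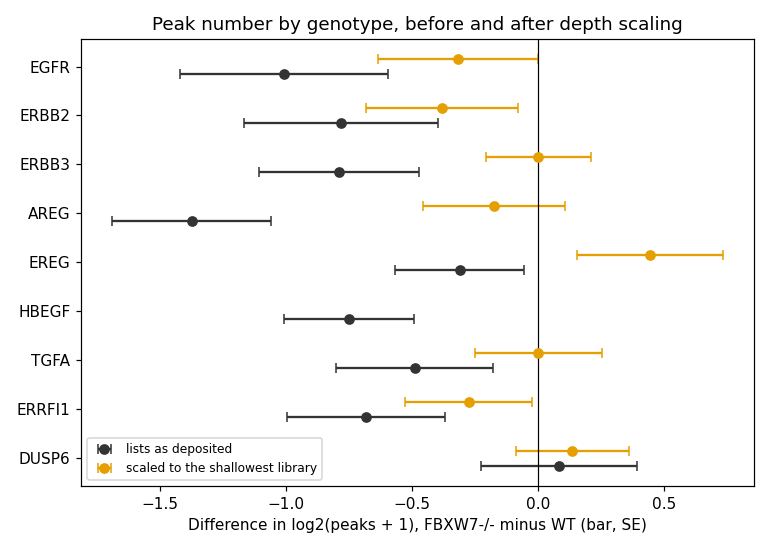
Difference in log2(peaks + 1), KO minus WT, for each member (horizontal axis; points, limma estimates; bars, SE), for the lists as deposited (dark) and after scaling to the shallowest library (orange). The AREG point moves from -1.38 to -0.18, and that of EREG changes sign from -0.31 to 0.44. HBEGF, drawn as deposited, had peaks in WT alone and was too rarely called after scaling to be fitted.

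Oxaliplatin and HDAC4 silencing gave no call at any member. By limma on peak number, 0% of 13784 genes passed for OXPT against UNT, for esiHDAC4 against esiCT, for esiHDAC4 against esiCT in KO OXPT, and for the difference of the OXPT response between KO and WT in esiCT. At an unadjusted p below 0.05 there were 779, 268, 310 and 1752 genes. The members' differences for OXPT against UNT were -0.25 to 0.36 with a median of 0.05, and for esiHDAC4 against esiCT -0.60 to 0.22 with a median of -0.01. Of the members' regions called in 3 to 13 libraries, 5 differed by at least 3 libraries between UNT and OXPT. More UNT than OXPT libraries held the DUSP6 region named above and the EREG regions chr4:74390977-74391638 and chr4:74393100-74393961 (3 and 0 each). More OXPT libraries held chr1:8005118-8006224 at ERRFI1 (1 UNT and 4 OXPT) and the PA2G4 region in the ERBB3 window (5 UNT and 8 OXPT). The region test, added after the values were seen, called 0% of regions for OXPT against UNT (426 at an unadjusted p below 0.05).

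In the KO OXPT setting, AREG peak number and EGFR fold had an unadjusted p below 0.05 between esiRNAs. AREG had 4 and 2 peaks in KO esiCT OXPT and 1 and 0 in KO esiHDAC4 OXPT, a difference of -1.45 (SE 0.63, unadjusted p = 0.0321, adjusted p = 1 in limma). The strongest EGFR fold was 5.07 and 4.45 in KO esiCT OXPT and 6.45 and 5.63 in KO esiHDAC4 OXPT, a centred difference of 0.51 (SE 0.23, unadjusted p = 0.0326, adjusted p = 0.997 in limma). The groups do not overlap in either case, and neither passed over all genes. Groups of the same libraries did not overlap for 5.24% of 13784 genes in peak number and for 29.5% of 2386 genes in centred fold. In KO UNT, AREG had 3 and 3 peaks with esiCT and 1 and 0 with esiHDAC4, a difference of -1.5 that was not tested. The 0 came from KO esiHDAC4 UNT B, the list with 1752 peaks, in which EGFR, ERBB2, ERBB3 and TGFA also had 0 peaks. No share over all genes is given for this split.

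Of the 43 other genes of the pathway, 39 were tested for peak number between KO and WT and 2 were lower in KO, SPRY1 (-1.13, SE 0.25, adjusted p = 0.0162 in limma), an inhibitor of receptor signalling to RAS, and CBL (-1.02, SE 0.32, adjusted p = 0.0399), a ubiquitin ligase for EGFR. None was higher. That is 5.1% of the list, with a median of -0.47, against 15.0% and -0.52 over all genes. Once all lists were scaled to the shallowest library, 0 genes passed in the whole set, so neither SPRY1 nor CBL was called there. For summit fold, 19 genes of the list were tested and 0 were called in each of the 5 comparisons. Among the targets, IER3 carried an SE in 15 libraries, PHLDA1 in 11 and FOSL1 in 8. EGF had a peak in 0 libraries and the feedback gene LRIG1 in 1.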

How the data were processed

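H3K27ac ChIP-seq of HCT-116 cells gave 16 libraries in 8 groups, grouped from the labels. Inputs (4 samples) were not used here. The authors used Trimmomatic 0.39 for trimming, Bowtie2 2.4.4 for alignment to hg38, SAMtools 1.18 for duplicate removal, MACS2 2.2.7.1 for peaks of each library and ROSE for SEs (versions per the submitters' processing notes). The deposited fold is a ratio of summit pileup to local background, the deposited p-value and q-value are −log10 values, and the deposited score is an integer derived from the q-value. SE lists hold positions only. Whether they were filtered on H3K4me1, as in the study's analysis, is stated in no source used here. No read counts are in these lists, so read totals are unknown, no count model was fitted and no counting interval is given. As an index of depth, summit reads and background were solved from fold and p (93.95% to 100% of peaks). For the scaling to the shallowest library, both were multiplied by the ratio of the lowest background among libraries (1.02) to that of the library, and peaks were kept where the p recomputed from them had a −log10 of at least 4.75. This matches the background level only, since true depth is unknown.

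A peak or SE belonged to a gene when it overlapped the gene body plus 10 kb (GENCODE version 44). Numbers were compared as log2(peaks + 1) for genes with a peak in at least 3 libraries. Summit fold of the strongest peak was compared on a log2 scale, centred by library, for genes listed in at least 12 libraries and in every group, and a library without a peak was left out of that gene's fit. Both used limma 3.58.1 in R 4.3.3 with the replicate letter as a block, as the study's own design has it, Benjamini-Hochberg adjustment and a threshold of 0.05. Presence was tested with exact tests stratified by letter for genes called in 3 to 13 libraries (scipy 1.17.1). The scripts were tested on simulated data. Across genes, libraries with the same letter deviated together weakly at the median (median r 0.09 for number, 0.12 for fold, lowest -0.12). The highest r was 0.35 for number and 0.40 for fold. This correlation leaves out the overall shift of each library, so it does not measure depth differences between letters. In no pair of libraries were more than 0.00791% of intervals identical, which does not measure how far their peaks overlap. No peak ended past its chromosome in hg38. Members, gene lists and tests were chosen with earlier results of these data known. Named regions were chosen from those at a member's own start site, those with the highest median fold, and those called in at least 3 more libraries of one side. Not all of the last kind are described above. The regions chr7:55131978-55132943 at EGFR, chr17:39704825-39706608 at ERBB2 and chr1:8016946-8019478 at ERRFI1 were each called in 5 WT and 2 KO libraries.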

Additional observations from a re-analysis of the deposited data

Results flagged for a closer look

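In 53 comparisons of the members' responses between WT and KO for which all 4 pairs of libraries had values, 5 had both WT pairs moving one way and both KO pairs the other. EGFR peak number fell with OXPT in both WT esiCT pairs and rose in both KO pairs (10 to 7 and 9 to 1 peaks against 7 to 8 and 0 to 3), a difference of 2.48 on the log2(peaks + 1) scale, with an unadjusted p of 0.0453 and an adjusted p of 0.39 in limma. Over all genes tested the median of this difference was 0.79, and 5.82% of genes showed opposite directions in this way. After scaling to the shallowest library the EGFR difference was 0.50 (adjusted p = 0.793 in limma). The other 4 differences were not tested. With esiHDAC4, the OXPT response of peak number was 0.98 higher in KO than in WT at ERBB3 and 0.90 higher at EREG, where 1.34% of all genes showed opposite directions and the median was 0.29. In UNT, the esiHDAC4 response of EREG peak number was lower in KO by a difference of -1.03, with opposite directions in 0.566% of genes. These ERBB3 and EREG values use KO esiHDAC4 UNT replicate B, the list with 1752 peaks. In OXPT, the esiHDAC4 response of the centred log2 fold of DUSP6 was 0.30 higher in KO, with opposite directions in 11.7% of 1990 genes.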

How the results depend on the processing

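The number of genes called for peak number between KO and WT was 2072 as reported. It was 65 with no replicate block, 1031 for the gene body only, 120 for peaks with −log10 q of at least 10, 414 with no filter and 0 after scaling to the shallowest depth. Leaving out libraries gave 0 to 4619, the extremes being replicate A alone (0) and replicate B alone (4619). Single libraries gave 6 to 4229, and each one except WT esiHDAC4 OXPT A moved the count by over 1.5 times. The other peak number comparisons, at 0 as reported, gave with no filter 87 (OXPT against UNT), 62 (esiHDAC4 against esiCT), 49 (OXPT response, KO minus WT) and 11 (esiHDAC4 in KO OXPT), and with the q limit 38 for OXPT against UNT and 256 for the OXPT response. For summit fold between KO and WT the count of 17 became 0 with no replicate block, 11 for the gene body only, 0 with the q limit, 102 without centring, 97 with unlisted genes at the lowest fold, 53 at the lowest callable fold (chosen after seeing the data), 11 without the pseudocount, 1 for genes listed in all 16 libraries and 11 at start sites only, and 0 to 71 without single libraries or letters. For OXPT against UNT the single call became 0 with no replicate block, with the q limit, without centring, with unlisted genes set to either level, without the pseudocount, in all 16 libraries and at start sites, and 0 to 2 without libraries or letters. For esiHDAC4 against esiCT it was 3 without centring and 0 to 3 without libraries, and for the OXPT response 3 without centring. Presence of peaks and SEs gave 0 calls in each comparison and alternative run. Among the members, no difference with an unadjusted p below 0.05 changed sign. In peak number, ERRFI1, EGFR and ERBB3 passed the threshold after leaving out some libraries or letter A. HBEGF entered the fit through WT alone, so its calls are not counted. In a fit without the block, AREG lost its call. It was the only member call to change with the block. Depth limits what can be said of any peak missing from KO replicate B.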
